A study of Mus musculus with 8 samples.

Results

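The mitochondrial genome encodes 13 proteins of the respiratory chain, and 6 of them lie outside complex I: cytochrome b of complex III (mt-Cytb), the core subunits of cytochrome c oxidase, complex IV (mt-Co1, mt-Co2 and mt-Co3), and subunits 8 and 6 of ATP synthase, complex V (mt-Atp8 and mt-Atp6). Their 6 rows were taken by Ensembl identifier and symbol from a kidney expression table of 30153 mouse genes, and all 6 had a row. The kidneys came from 8 C57/BL6 mice that carried a human gene for angiotensin receptor type 1 in its haplotype II form (Hap-II), and every animal was on a western diet. The groups were 4 adult and 4 aged animals, with 1 library each, and they shared the strain, the haplotype and the diet. The sources used here do not give the ages in weeks or months, the sex of the animals or the promoter of the human gene, and the level of the human gene was not analysed here. The comparison addresses how age alters the kidney transcriptome in these mice.

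Complex III passes electrons from ubiquinol to cytochrome c, complex IV passes them from cytochrome c to oxygen, and both pump protons across the inner mitochondrial membrane. ATP synthase lets the protons flow back and makes ATP. Each of these complexes joins a few subunits encoded in mitochondrial DNA to a larger number encoded in the nucleus, and the tubule cells of the kidney are among the cells richest in mitochondria because they drive salt transport with ATP. Mitochondrial DNA is copied into long RNAs that are cut into single messages, most of which receive a short poly(A) tail, so that they enter libraries made by pull-down of polyadenylated RNA, as these were.

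The 6 genes lie on the plus strand of the mitochondrial chromosome (GRCm38), and each is a single coding exon without introns. mt-Co1 spans chrM:5328-6872 (1545 bases), mt-Co2 chrM:7013-7696 (684 bases), mt-Atp8 chrM:7766-7969 (204 bases), mt-Atp6 chrM:7927-8607 (681 bases), mt-Co3 chrM:8607-9390 (784 bases) and mt-Cytb chrM:14145-15288 (1144 bases). The annotated mt-Co3 and mt-Cytb end on 1 base beyond their last whole codon, a T, and the tail supplies the rest of such a stop codon. The end of mt-Atp8 is also the start of mt-Atp6: the genes share 43 bases in different reading frames and are known to stay on 1 message. mt-Atp6 and mt-Co3 share 1 base. The whole of mt-Atp8 and the first 80 bases of mt-Atp6 are printed because reads from the shared stretch fit either gene, and capitals mark the 43 shared bases. Gene sequences and positions are those of GENCODE release M21 on GRCm38.
mt-Atp8: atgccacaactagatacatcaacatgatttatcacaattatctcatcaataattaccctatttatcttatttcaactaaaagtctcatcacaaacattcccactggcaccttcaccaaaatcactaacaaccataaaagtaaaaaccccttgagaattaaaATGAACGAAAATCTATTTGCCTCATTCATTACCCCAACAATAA
mt-Atp6: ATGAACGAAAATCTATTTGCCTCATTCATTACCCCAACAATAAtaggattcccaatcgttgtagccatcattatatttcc

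For 4 of the 6 genes the annotation also holds a near-identical copy in the nuclear genome, a stretch of mitochondrial DNA inserted into the minus strand of chromosome 1 and annotated as unprocessed pseudogenes. A copy was counted where at least 0.5 of its 31-base words occurred in the mitochondrial gene. Gm28661 (chr1:24614885-24615565, 681 bases) equals mt-Co2, Gm28437 (chr1:24613189-24613971, 783 bases) equals mt-Co3 and Gm10925 (chr1:24613974-24614651, 678 bases) equals mt-Atp6 over their whole length, with 0 mismatches each. Gm29216 (chr1:24615706-24616197, 492 bases) covers positions 1054 to 1545 of mt-Co1, with 98.8% identity. Its 6 mismatches, counted from 1 at the 5′ end of mt-Co1 with the mitochondrial base first, are T1056A, C1057T, A1059G, A1060G, C1062A and A1066T. mt-Cytb and mt-Atp8 had no annotated copy by this rule. Gm10925 starts at base 1 of mt-Atp6, so it also holds the 43 bases that mt-Atp6 shares with mt-Atp8. mt-Atp8 lies between mt-Co2 and mt-Atp6 on the mitochondrial chromosome, and the stretch of chromosome 1 between their copies was not examined. The start of the mt-Co1 pair is printed, with capitals at the mismatched bases, beside the first 60 bases of the mt-Co2 pair, which are the same letter for letter. A read from an identical stretch cannot be assigned to either place by its sequence.
mt-Co1: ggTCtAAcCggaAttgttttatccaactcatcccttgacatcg
Gm29216: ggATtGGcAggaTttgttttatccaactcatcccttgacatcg
mt-Co2: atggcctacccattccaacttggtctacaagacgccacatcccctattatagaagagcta
Gm28661: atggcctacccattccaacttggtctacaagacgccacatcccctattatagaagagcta

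Levels are given as TPM, which divides by transcript length and lets the genes of a library share a fixed total, so a larger share for some genes lowers the values of others. Column totals were between 924798 and 950974 TPM, and 10663 to 12293 genes per library reached 1 TPM. The number of reads behind a value cannot be read from TPM and is unknown. Libraries of replicates 1 and 2 in both groups held 0.485 to 2.30 TPM of 4 summed Y-linked transcripts, and those of replicates 3 and 4 held 34.7 to 50.6 TPM, so the groups are balanced for this split. Kidney markers were present in all libraries. In bulk tissue, fewer cells of a type and less RNA per cell cannot be told apart.

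All 6 transcripts had a higher mean in aged than in adult kidneys, by 1.26-fold for mt-Co1 up to 2.69-fold for mt-Co2. The ATP synthase pair and mt-Co2 had the largest differences for their error, and mt-Cytb and mt-Co1 the smallest. None passed the test across all genes: limma on log2(TPM + 1) gave an adjusted p of 1.00 for each, and 0% of the 11796 genes tested passed, in either direction. Without adjustment 4 of the 6 had a limma p under 0.05 with a higher aged mean (mt-Co2, mt-Co3, mt-Atp8 and mt-Atp6), against 0.636% of all genes in that direction. mt-Co3 was the closest to that limit. The count was 3 with at least 5 TPM, without trend or with the copies described above added. It was 2 with no filter, size factors or quantile normalization. It was 5 with the Y-linked class as a covariate and 6 with scaling to genes outside the mitochondrial genome. Over all 11796 genes the count in that direction was 75 as deposited, 76 without trend, 74 with copies added and 147 with the covariate. With size factors it was 372, with quantile normalization 365 and with scaling to the other genes 434. It was 26 of 7389 with at least 5 TPM and 179 of 20355 with no filter. With any 1 library left out the count among the 6 was 3, except 4 without aged replicate 2. Over all genes it was then 58 to 121. Within the libraries of low Y-linked transcripts the count among the 6 was 1, and within the others 4 (n = 2 per group in each). Over all genes these classes gave 82 and 185. In 2 of the 6, mt-Atp8 and mt-Atp6, every aged library lay above every adult one, against 0.348% of all genes. The median log2 fold change was 0.82 over the 6, 0.53 over the 7 complex I genes of the same chromosome and -0.11 over all genes tested. Of the 7 complex I genes, 3 had an unadjusted limma p under 0.05 and 1 did not overlap between the groups.

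mt-Cytb is the only mitochondrially encoded subunit of complex III and carries its hemes b. It stood at 25298, 24559, 31018 and 34932 TPM in adult replicates 1 to 4 and at 35554, 32849, 43120 and 38112 TPM in the aged ones. Adult replicate 4 lay above aged replicate 2, so the groups overlapped. The means were 28952 ± 4922 and 37409 ± 4372 TPM (SD, n = 4 per group), a log2 fold change of 0.38 (SE 0.20).

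mt-Co1 holds the heme and copper centre at which oxygen is reduced. It stood at 35942, 37027, 46723 and 47224 TPM in adult kidneys and at 54022, 46690, 59432 and 50579 TPM in aged ones. The groups overlapped through aged replicate 2, which lay below adult replicates 3 and 4. The log2 fold change was 0.34 (SE 0.20). mt-Co1 had the highest TPM of the 13 mitochondrial genes in all 8 libraries.

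mt-Co2 carries the copper site that takes electrons from cytochrome c. It stood at 17640, 11699, 10438 and 14242 TPM in adult kidneys and at 32874, 15953, 56796 and 39876 TPM in aged ones. Aged replicate 2 lay within the adult range, and the other aged libraries lay above it. The means were 13505 ± 3178 and 36375 ± 16918 TPM (SD, n = 4 per group), a log2 fold change of 1.32 (SE 0.35).

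mt-Co3 is the third core subunit of the oxidase and lies beside mt-Co1 in the membrane. It stood at 14401, 15298, 16801 and 11379 TPM in adult kidneys and at 33122, 11437, 50355 and 22614 TPM in aged ones. Again aged replicate 2 fell within the adult range. The log2 fold change was 0.84 (SE 0.38), and 0.51 without aged replicate 3. The aged libraries spread more than the adult ones in both genes, with a coefficient of variation of 46.5% against 23.5% for mt-Co2 and 56.3% against 15.8% for mt-Co3; that of mt-Co1 was 10.3% against 14.6%.

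mt-Atp8, a short membrane subunit of ATP synthase, stood at 18437, 18124, 25698 and 21673 TPM in adult kidneys and at 41641, 34378, 57488 and 40350 TPM in aged ones. Every aged library lay above every adult one. The means were 20983 ± 3529 and 43464 ± 9870 TPM (SD, n = 4 per group), a log2 fold change of 1.04 (SE 0.22). mt-Atp8 has no annotated nuclear copy by the rule above, and its unadjusted p ranked 7 among all genes tested.

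mt-Atp6 forms part of the proton channel of ATP synthase. It stood at 25972, 22006, 27523 and 28917 TPM in adult kidneys and at 41511, 35991, 57142 and 50070 TPM in aged ones. The groups did not overlap. The log2 fold change was 0.81 (SE 0.21).

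**Figure D1:**
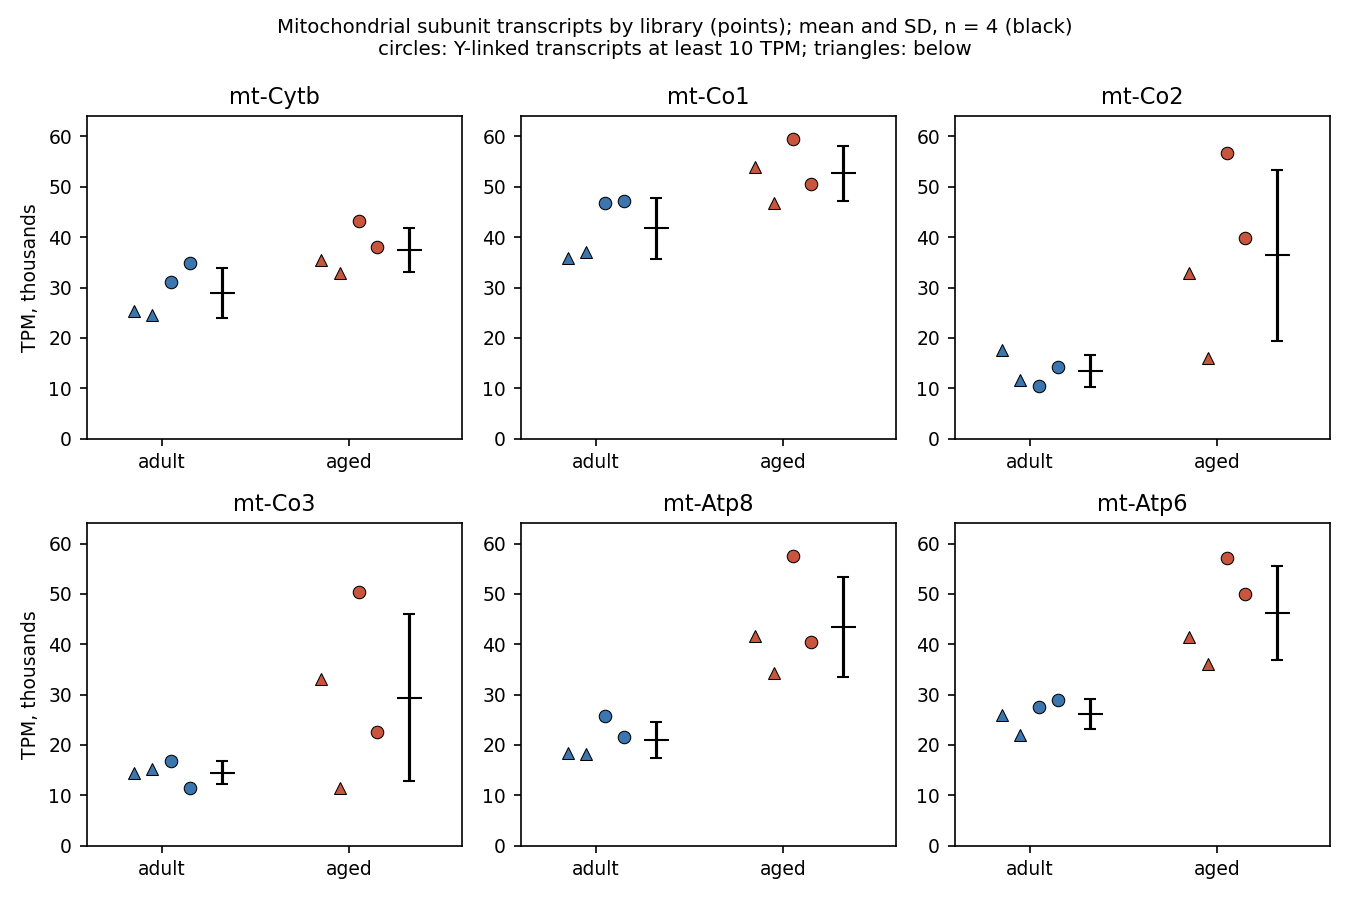
TPM of each of the 6 transcripts in adult and aged kidneys, 1 point per library, with the mean and SD (n = 4) in black; circles are libraries with at least 10 TPM of summed Y-linked transcripts and triangles those below. Adult and aged points are separate for mt-Atp8 and mt-Atp6 and overlap for the others, and the aged points of mt-Co2 and mt-Co3 spread most.

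Within the 13 genes the order of the levels was not the same in the groups. mt-Cytb ranked 2 or 3 in adult and 4 to 6 in aged libraries, while mt-Atp8 ranked 4 in each adult library and 2 or 3 in aged ones. mt-Atp6 ranked 2 or 3 in all 8. mt-Co2 ranked 5 to 12 in adult and 4 to 7 in aged libraries, and mt-Co3 5 to 12 and 5 to 10. By mean TPM the adult order was mt-Co1, mt-Cytb, mt-Atp6, mt-Atp8, mt-Co3 and mt-Co2, in which mt-Cytb and mt-Atp6, and mt-Co3 and mt-Co2, differed by less than the larger SD of the pair. In aged kidneys it was mt-Co1, mt-Atp6, mt-Atp8, mt-Cytb, mt-Co2 and mt-Co3, and every pair of neighbours differed by less than the larger of their SDs. These orders leave out the nuclear copies, and mean shares of the 13 genes with copies added gave others. The adult order was then mt-Co1 (22.5%), mt-Co3 (15.6%), mt-Co2 (11.8%), mt-Atp6 (9.59%), mt-Cytb (8.89%) and mt-Atp8 (6.46%). The aged order was mt-Co1 (17.7%), mt-Co3 (13.9%), mt-Co2 (12.7%), mt-Atp6 (11.0%), mt-Atp8 (9.77%) and mt-Cytb (8.50%). With copies scaled by length, mt-Co3 (14.5%) and mt-Co1 (14.4%) were level in aged kidneys.

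The nuclear copies of the complex IV genes were listed at levels of the same order as the mitochondrial genes, and that of mt-Atp6 lower. Gm28661 was listed at 18131, 20573, 30124 and 30553 TPM in adult kidneys and at 18941, 31891, 10289 and 17517 TPM in aged ones, the same order of size as mt-Co2. The copy held 50.7% to 74.3% of the summed mt-Co2 and Gm28661 TPM in adult libraries and 36.6%, 66.7%, 15.3% and 30.5% in aged replicates 1 to 4. Aged replicate 2, the library in which mt-Co2 was lowest among the aged, had the largest aged share in the copy.

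With the copy added, mt-Co2 stood at 35770, 32272, 40563 and 44795 TPM in adult kidneys and at 51815, 47844, 67086 and 57393 TPM in aged ones. These sums did not overlap. Their means were 38350 ± 5478 and 56034 ± 8344 TPM (SD, n = 4 per group), 1.46-fold higher in aged kidneys where mt-Co2 alone was 2.69-fold higher. The log2 fold change was 0.55 (SE 0.19), and the coefficient of variation of the aged libraries was 14.9%.

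Gm28437 was listed at 24934, 32865, 44615 and 42289 TPM in adult kidneys and at 33295, 35751, 22681 and 37291 TPM in aged ones, above mt-Co3 in all libraries except aged replicate 3. It held 63.4% to 78.8% of the mt-Co3 and Gm28437 sum in adult and 31.1% to 75.8% in aged libraries. The sums were 50646 ± 9296 TPM in adult kidneys and 61636 ± 11024 TPM in aged ones (SD, n = 4 per group), with overlap, and the log2 fold change was 0.28 (SE 0.21) in place of 0.84.

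Gm10925 was the smallest part of its pair. It was listed at 3534, 4217, 6248 and 5962 TPM in adult kidneys and at 4621, 4558, 463 and 670 TPM in aged ones, and held 11.98% to 18.5% of the sum with mt-Atp6 in adult and 0.804% to 11.2% in aged libraries. In the libraries of higher Y-linked transcripts alone Gm10925 passed the adjusted limma test (log2 fold change -3.45, adjusted p = 0.00205), with 2 libraries per group. With the copy added mt-Atp6 stood at 31095 ± 3989 and 48756 ± 7222 TPM (SD, n = 4 per group), without overlap, and its log2 fold change was 0.65 (SE 0.19). For mt-Co1 the copy Gm29216 was listed at 27975 to 35757 TPM in adult kidneys and 16018 to 34368 TPM in aged ones, 37.5% to 45.4% and 24.1% to 36.6% of the sum. The mt-Co1 sum was 72820 ± 7769 TPM in adult kidneys and 77927 ± 12534 TPM in aged ones (SD, n = 4 per group), a log2 fold change of 0.09 (SE 0.19). Gm29216 is shorter than mt-Co1. With its TPM scaled by length before the addition, an alternative chosen after seeing the data, the log2 fold change was 0.23 (SE 0.18). With copies added, 3 of the 6 did not overlap between groups: mt-Co2, mt-Atp8 and mt-Atp6. The share of all genes with the aged above and no overlap was 0.348% as deposited, and it was not counted with copies added. None passed the adjusted limma test in that form either. Within the libraries of low Y-linked transcripts mt-Co2 alone was 1.66-fold higher in aged kidneys and within the others 3.92-fold, and with its copy added 1.46-fold in both (n = 2 per group in each). mt-Atp8 was 2.08-fold and 2.07-fold higher in these classes. Whether reads were divided between the copies differently in the groups was not tested.

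**Figure D2:**
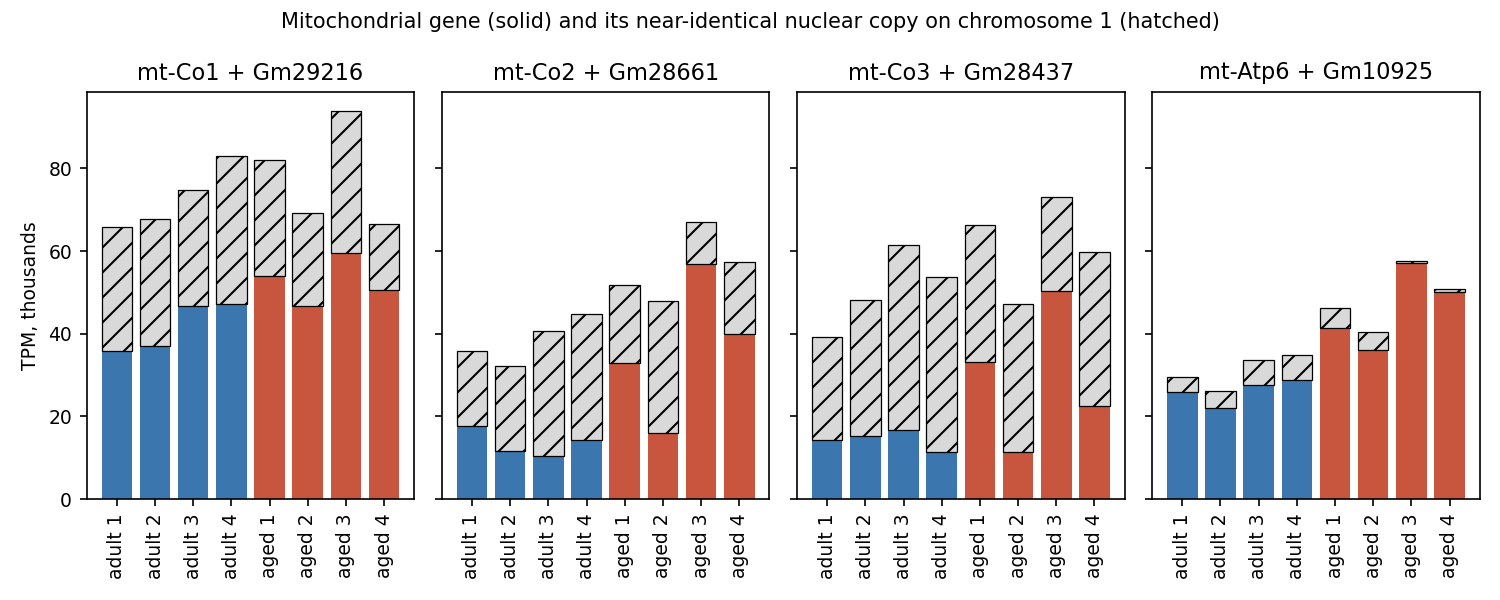
TPM of 4 mitochondrial genes (solid bars, adult blue and aged red) with that of the near-identical nuclear copy stacked on top (hatched), 1 bar per library. The solid part varies more between aged libraries than the whole bar for mt-Co2 and mt-Co3, and the copy is a small part of the bar for mt-Atp6.

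Together the 6 transcripts held 13.8%, 12.9%, 15.8% and 15.8% of the nominal TPM total in adult kidneys and 23.9%, 17.7%, 32.4% and 24.2% in aged ones. Every aged library lay above every adult one, with means of 14.6% ± 1.49 and 24.5% ± 6.04 (SD, n = 4 per group). With TPM multiplied by transcript length the share was 14.1% to 18.9% in adult and 17.8% to 32.9% in aged libraries, so the groups overlapped on that scale. Within the class of low Y-linked transcripts the mean was 13.3% in adult and 20.8% in aged kidneys, and within the other class 15.8% and 28.3% (n = 2 per group in each). With the 4 nuclear copies added, the shares were 24.3% ± 3.15 and 32.5% ± 4.98, and the ranges overlapped. Gm29216, which is shorter than mt-Co1, entered this sum at its full TPM. Whether the ranges overlap with copies scaled by length was not examined. The copies themselves held 9.71% ± 1.78 and 7.97% ± 1.24. The genes without an annotated copy by the rule above, mt-Cytb and mt-Atp8, held 4.99% ± 0.778 and 8.09% ± 1.41, without overlap. No test was made of these sums.

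By complex, the mt-Atp8 and mt-Atp6 pair held 4.71% ± 0.593 of the TPM total in adult and 8.96% ± 1.86 in aged animals (SD, n = 4 per group). With Gm10925 added the groups were apart as well, at 5.21% ± 0.711 and 9.22% ± 1.68. The complex IV genes held 6.97% ± 0.459 and 11.8% ± 3.79, without overlap, and 16.2% ± 2.02 and 19.6% ± 2.95, with overlap, once their copies were added. That sum too counted Gm29216 at its full TPM, and it was not made with copies scaled by length. mt-Cytb, alone for complex III, held 2.90% ± 0.492 and 3.74% ± 0.437.

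The share that each transcript took of the 13 mitochondrial genes does not move when all of them move together against the rest of the library. The 6 held 64.2% ± 2.37 of the 13 in adult and 68.3% ± 3.38 in aged animals (SD, n = 4 per group), with overlap. mt-Atp8 made up 8.81%, 9.26%, 10.5% and 8.32% in adult and 12.7%, 12.8%, 12.3% and 10.9% in aged libraries. The groups did not overlap, with means of 9.22% ± 0.935 and 12.2% ± 0.892, a difference of 2.94 percentage points (SE 0.646). The exact two-sided permutation test gave p = 0.0286, the smallest that 4 against 4 libraries allow, and 0.131 adjusted over 16 values (13 shares and 3 ratios), so it did not pass.

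mt-Atp6 made up 11.5% ± 0.611 of the 13 in adult and 12.9% ± 0.641 in aged libraries (exact permutation p = 0.0571, adjusted 0.131). mt-Co2 made up 6.03% ± 1.75 and 9.70% ± 2.64 (exact permutation p = 0.0857, adjusted 0.152), and mt-Co3 6.48% ± 1.48 and 7.79% ± 3.12 (exact permutation p = 0.514, adjusted 0.633). The difference in mt-Co3 share, 1.31 percentage points, was smaller when aged replicate 3 (0.34), aged replicate 1 (0.55) or adult replicate 4 (0.61) was left out, and was 2.49 when aged replicate 2 was. The shares of mt-Cytb and mt-Co1 had the opposite sign to their TPM. mt-Cytb made up 12.7% ± 0.546 in adult and 10.6% ± 1.28 in aged libraries, and mt-Co1 18.3% ± 0.876 and 15.04% ± 2.26, each with an exact permutation p of 0.0571, adjusted 0.131.

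**Figure D3:**
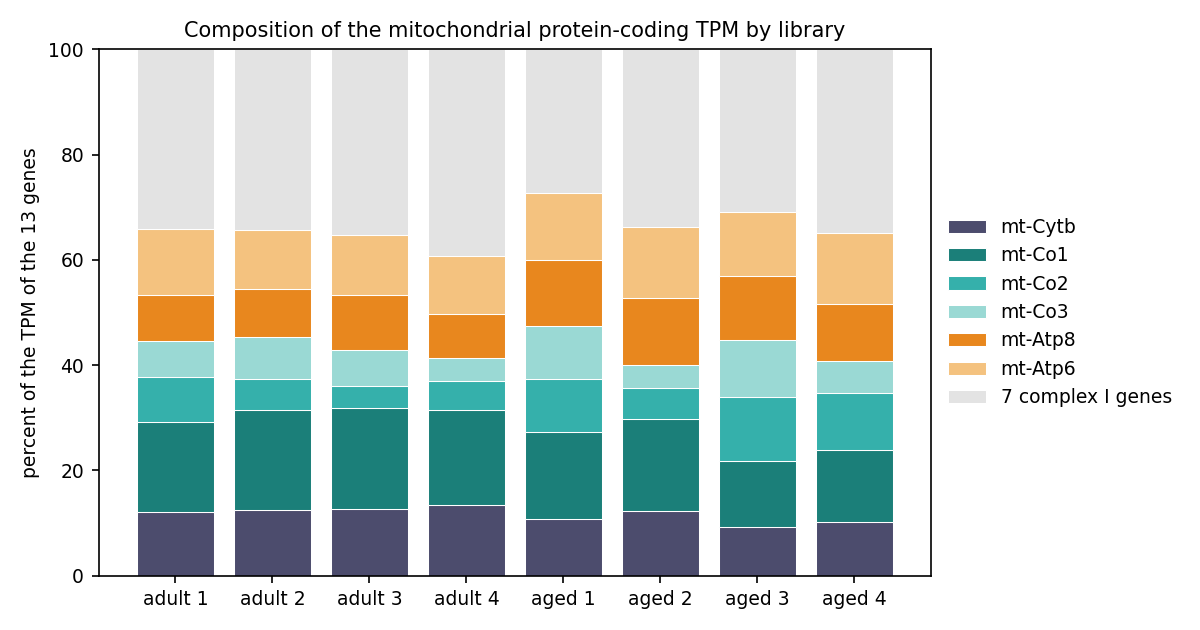
Percent of the summed TPM of the 13 mitochondrial protein-coding genes held by each of the 6 transcripts and by the 7 complex I genes together, 1 bar per library. The mt-Atp8 segment is 8.32% to 10.5% in adult and 10.9% to 12.8% in aged libraries.

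The annotation held 7 nuclear copies for the 13 genes, 3 of them of complex I genes. Those of mt-Nd4 (Gm28439) and mt-Nd4l (Gm10222) were listed at 0 TPM in all libraries, although identical to their gene over their length. Adding the copies to their genes altered which shares stood apart. mt-Atp8 then made up 6.46% ± 0.611 in adult and 9.77% ± 0.709 in aged libraries, mt-Atp6 9.59% ± 0.501 and 11.0% ± 0.307, both with the aged above the adult, and mt-Co1 22.5% ± 1.17 and 17.7% ± 1.97 with the aged below (exact permutation p = 0.0286 and adjusted p = 0.0914 for each). The complex V pair made up 16.1% ± 0.867 in adult and 20.8% ± 0.469 in aged libraries, and the complex IV genes 49.9% ± 1.59 and 44.3% ± 2.56, neither with overlap. Gm29216 entered all these shares at its full TPM. With copies scaled by length mt-Co1 made up 17.1% ± 0.524 and 14.4% ± 1.32, still with the aged below (exact permutation p = 0.0286, adjusted 0.0914). The sums by complex were not made in that form. mt-Co3 with its copy made up 15.6% ± 1.82 and 13.9% ± 1.30, a difference of -1.65 percentage points where mt-Co3 alone had 1.31. mt-Cytb made up 8.89% ± 0.293 and 8.50% ± 0.370.

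Because mt-Atp8 and mt-Atp6 come from 1 message, their ratio compares parts of the same RNA. It was 0.710, 0.824, 0.934 and 0.750 in adult and 1.00, 0.955, 1.01 and 0.806 in aged libraries (exact permutation p = 0.0857 on the log2 ratio, adjusted 0.152). Aged replicate 4 lay within the adult range. With Gm10925 added to mt-Atp6 the ratio was 0.675 ± 0.0659 in adult and 0.886 ± 0.0866 in aged libraries (SD, n = 4 per group), without overlap (exact permutation p = 0.0286, adjusted 0.0914). Reads from the 43 shared bases fit both genes, and mt-Atp8, at 204 bases, is the shortest of the 6, so its TPM rests most on how the length was treated; the sources used here do not give that treatment.

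mt-Co2 stood at 0.333 ± 0.113 of mt-Co1 in adult and 0.674 ± 0.263 in aged libraries (SD, n = 4 per group; exact permutation p = 0.0571, adjusted 0.131). With both copies added the ratio was 0.526 ± 0.0329 and 0.725 ± 0.0978, without overlap (exact permutation p = 0.0286, adjusted 0.0914). The difference in the log2 of mt-Co2 to mt-Co1 was 0.98 alone and 0.46 with the copies. It was 0.31 with the copies scaled by length, also without overlap. mt-Co3 to mt-Co1 was 0.354 ± 0.0785 and 0.538 ± 0.255 (exact permutation p = 0.229, adjusted 0.332), and 0.694 ± 0.0971 and 0.792 ± 0.0902 with both copies added (exact permutation p = 0.229, adjusted 0.366). The difference in its log2 was 0.50 alone, 0.19 with the copies and 0.05 with the copies scaled by length. With 1 library left out the first of these ran from 0.23 (without aged replicate 3) to 0.83 (without aged replicate 2), and was 0.32 without adult replicate 4.

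How the libraries are scaled sets the size of these differences, since the TPM total is fixed. As deposited, 65.0% of the 11796 genes had a negative log2 fold change. The median of all genes was -0.11 as deposited, -0.01 with median-of-ratios size factors, 0.01 with quantile normalization and 0.14 when each library was scaled to genes outside the mitochondrial genome and its copies. Counts of genes with an unadjusted limma p under 0.05 were 75 higher and 325 lower as deposited, 372 and 444 with size factors, 365 and 390 with quantile normalization and 434 and 93 with scaling to the other genes. mt-Atp8 had log2 fold changes of 1.16, 0.68 and 1.33 under these 3 scalings, and mt-Co2 1.43, 0.95 and 1.61. mt-Atp6 had 0.92, 0.29 and 1.10. The sign of mt-Cytb depended on the scaling: 0.49 with size factors and 0.67 with scaling to other genes, but -0.12 (SE 0.11) with quantile normalization, where mt-Co1 was at 0.08 (SE 0.13). Quantile normalization gives every library the same set of values by rank. It therefore removes a rise shared by the highest genes and cannot show one. None of the 6 passed the adjusted test under any of these.

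**Figure D4:**
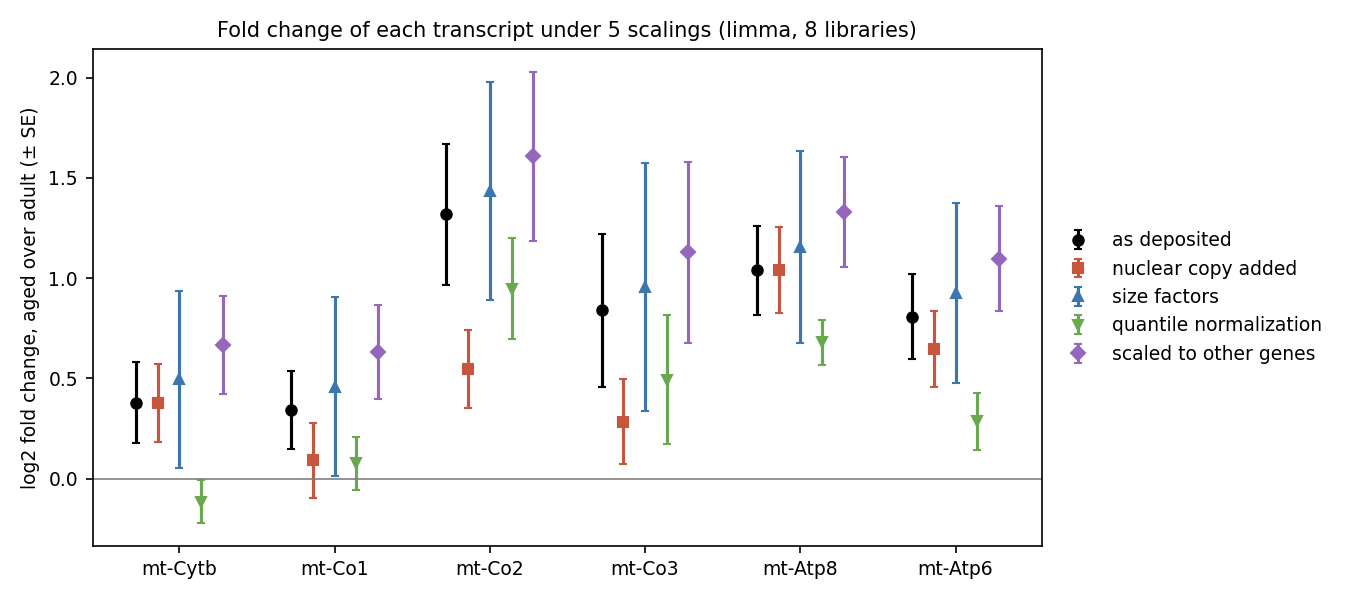
Log2 fold change (aged over adult, ± SE from limma, 8 libraries) of each transcript as deposited, with its nuclear copy added, and under 3 other scalings of the libraries. mt-Co2, mt-Co3, mt-Atp8 and mt-Atp6 stay above 0 by more than their SE in all 5, and mt-Cytb lies at -0.12 with quantile normalization.

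The nuclear genes of the same complexes lay on the other side of 0. Of 9 nuclear complex III subunits 9 had a lower aged mean on the log scale, with a median log2 fold change of -0.50; none passed the adjusted test, and 3 had an unadjusted limma p under 0.05, against 2.76% of all genes in that direction. Uqcrq, a small subunit, was at 653 ± 70.9 TPM in adult kidneys and 400.3 ± 63.5 TPM in aged ones (SD, n = 4 per group; log2 fold change -0.71, SE 0.21). Uqcr11, another small subunit, was at 1321 ± 198 and 803 ± 227 TPM (-0.75, SE 0.25). Cyc1, cytochrome c1, was at 207 ± 38.1 and 139.9 ± 10.8 TPM (-0.55, SE 0.22). In these 3 genes every aged library lay below every adult one, as in 2.11% of all genes.

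All 11 nuclear complex IV subunits measured had negative log2 fold changes, with a median of -0.34, 0 past the adjusted test and 2 with an unadjusted p under 0.05 (2.76% of all genes). Cox8a was at 779 ± 206 TPM in adult kidneys and 503 ± 71.3 TPM in aged ones (-0.60, SE 0.25), Cox5a at 807 ± 192 and 537 ± 75.1 TPM (-0.57, SE 0.23) and Cox4i1, which helps regulate the oxidase, at 2509 ± 458 and 1803 ± 429 TPM (-0.49, SE 0.24). The 15 nuclear ATP synthase subunits were all negative as well, with a median of -0.38, 0 past the adjusted test and 1 with an unadjusted p under 0.05 (2.76% of all genes). Atp5g3, which encodes the membrane c subunit, was at 1213 ± 282 and 822 ± 109 TPM (-0.54, SE 0.23), Atp5c1, the central stalk subunit gamma, at 794 ± 119 and 593 ± 98.0 TPM (-0.42, SE 0.22) and Atp5k, the e subunit, at 1571 ± 383 and 1178 ± 165 TPM (-0.39, SE 0.23).

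The size of these medians depends on the scaling. With size factors they were -0.38, -0.23 and -0.26 for complexes III, IV and V, with every subunit still negative, where the median of all genes was -0.01. With quantile normalization they were -0.08, 0.02 and -0.05, and with scaling to genes outside the mitochondrial genome -0.21, -0.05 and -0.09, where the median of all genes was 0.01 and 0.14 in turn. The ratio of the mean mitochondrial to the mean nuclear subunit TPM within a library does not depend on a scaling factor. For complex V it was 22.2 ± 5.43 in adult and 54.5 ± 17.2 in aged kidneys, and 24.5 ± 6.20 and 55.9 ± 16.1 with the copy added, in both forms without overlap (SD, n = 4 per group). For complex IV it was 18.3 ± 3.33 and 40.3 ± 16.5, without overlap, and 42.4 ± 9.09 and 65.8 ± 16.1, with overlap, once the copies were added. The latter form counted Gm29216 at its full TPM. For complex III the ratio was 31.02 ± 8.66 and 53.4 ± 13.9, with overlap.

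Among 33 assembly factors of the 3 complexes 32 were measured, of which 5 had positive and 27 negative log2 fold changes (median -0.22), with 0 past the adjusted test and 3 with an unadjusted p under 0.05, all lower, against 2.76% of all genes. Coa7, which serves the assembly of the oxidase, was at 23.5 ± 2.13 TPM in adult kidneys and 13.1 ± 5.53 TPM in aged ones (-0.89, SE 0.32), Coa6, which handles copper for mt-Co2, at 52.5 ± 7.62 and 32.8 ± 15.2 TPM (-0.74, SE 0.30) and Uqcc3, a complex III factor, at 53.0 ± 8.18 and 35.7 ± 9.13 TPM (-0.58, SE 0.25).

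Genes that make and keep mitochondrial RNA lay near the median of all genes. The 16 genes for transcription and copying of mitochondrial DNA had 3 positive and 13 negative log2 fold changes (median -0.12), and 0 had even an unadjusted limma p under 0.05. Mterf2, of the mitochondrial transcription termination factor family, was at 5.53 ± 1.75 and 3.83 ± 1.13 TPM, Mterf1b at 1.35 ± 0.594 and 0.815 ± 0.435 TPM and Polg2, a subunit of the mitochondrial DNA polymerase, at 5.69 ± 1.08 and 4.41 ± 0.260 TPM. Of 21 genes for processing, polyadenylation and stability of mitochondrial RNA 19 were measured, 1 with a positive and 18 with negative log2 fold changes (median -0.14), and again 0 with an unadjusted p under 0.05. With scaling to genes outside the mitochondrial genome the medians of these lists turned to 0.15 and 0.13, and that of the assembly factors to 0.04, beside 0.14 for all genes. Fastkd2, which binds mitochondrial RNA, was at 21.4 ± 2.91 and 14.6 ± 5.26 TPM, Hsd17b10, a subunit of the enzyme that cuts the 5′ ends of mitochondrial tRNAs, at 164 ± 33.4 and 117 ± 30.98 TPM and Pnpt1, which degrades mitochondrial RNA, at 10.8 ± 3.52 and 8.25 ± 1.15 TPM.

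**Figure D5:**
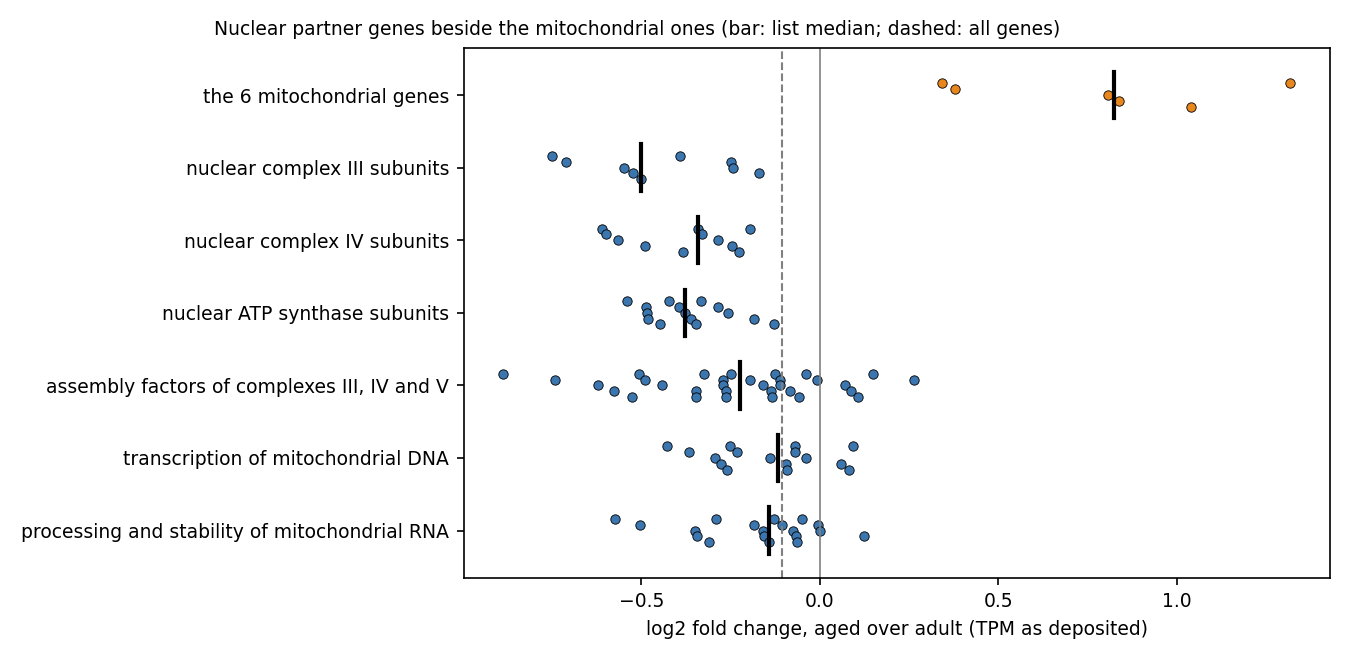
Log2 fold change (aged over adult, TPM as deposited) of the 6 mitochondrial genes and of each measured gene in 6 lists of nuclear partners, with each list's median as a bar and the median of all genes (-0.11) as a dashed line. The 6 mitochondrial genes lie above 0 and all nuclear subunits of complexes III, IV and V below it.

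Across the 8 libraries the 6 transcripts moved with each other to different degrees. Pearson's r of log2(TPM + 1) over the 15 pairs ran from 0.625 for mt-Cytb with mt-Co3 to 0.965 for mt-Cytb with mt-Co1, and was 0.963 for mt-Atp8 with mt-Atp6. All values of a library share its fixed total, so these are descriptions. Group means were not removed, so the difference between adult and aged libraries enters every r and the choice of the most similar genes. The gene most like mt-Cytb was mt-Nd4 (r = 0.971), that most like mt-Co1 was mt-Cytb, and mt-Atp8 and mt-Atp6 were most like each other. mt-Co2 was most like ENSMUSG00000093514 (r = 0.961), with means of 0.577 and 2.13 TPM, and mt-Co3 was most like Gm13341 (r = 0.891), which lies on chromosome 2, holds 48.0% of its 31-base words in common with mt-Co2, just under the limit for a copy, and was listed at 2.22 to 6.58 TPM. Of genes outside the mitochondrial genome and its copies, those most like the sum of the 6 over 8 libraries were Ccl28, a chemokine (r = 0.886; means of 5.52 and 22.4 TPM), Gm14226 (r = 0.851), Gm15878 (r = 0.850, listed at 0 in all adult libraries), Bglap3 (r = 0.844), Cspp1, a centrosome and cilium protein (r = 0.839), and ENSMUSG00000093514 (r = 0.830).

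Markers of kidney cell types are given beside these values, because cell types differ in their mitochondria. The 8 proximal tubule markers summed to 1680 to 5600 TPM in adult and 1240 to 4383 TPM in aged libraries (1 positive and 7 negative log2 fold changes, median -0.13), and the 5 thick ascending limb markers to 763 to 2094 and 484 to 1926 TPM (5 negative, median -0.35). The 4 distal convoluted tubule markers summed to 120 to 396 and 67.8 to 462 TPM (4 negative, median -0.33), and the 5 collecting duct markers to 87.4 to 315 and 88.8 to 204 TPM (5 negative, median -0.21). The 4 podocyte markers (30.6 to 108 and 30.2 to 132 TPM, median 0.15) and the 5 endothelial markers (64.4 to 135 and 106 to 146 TPM, median 0.25) had positive log2 fold changes throughout. The leukocyte markers summed to 6.61 to 16.5 and 5.76 to 13.5 TPM (4 of 5 tested, median 0.08). The 5 red cell markers summed to 2700 to 10648 and 933 to 14661 TPM (5 negative, median -1.08). Adipocyte markers summed to 0.862 to 7.45 and 0 to 2.34 TPM (1 of 4 tested, -0.98), urothelial markers to 4.17 to 17.2 and 2.34 to 4.62 TPM (2 of 4 tested, median -0.81), and adrenal cortex markers to 0.522 to 1.12 and 0.368 to 1.05 TPM, with 2 of the 4 at 0 in all libraries. None of these marker genes passed the adjusted limma test. The part of the cell types in the values of the 6 transcripts was not tested.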

How the data were processed

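Per the labels' protocols, a Qiagen kit was used for extraction, and polyadenylated RNA went into stranded libraries. The authors deposited TPM for 30153 mouse genes in 8 libraries. Per the submitters' processing notes the tools were kallisto and DESeq2 and the build GRCm38. The sources used here do not give the versions, the annotation or the step that made the TPM. Columns were matched to samples by name, and 29732 identifiers (98.6%) to symbols. The design text states 4 animals per group.

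Groups were compared with limma 3.58.1 (R 4.3.3) with its trend option on log2(TPM + 1), a scale whose pseudocount understates the change of low genes, for 11796 genes with a mean of at least 1 TPM. P-values were Benjamini-Hochberg adjusted over all genes, with a threshold of 0.05. TPM are not counts, so no count model was used. The procedure was tested on simulated data. An exact two-sided permutation test over 70 assignments was used for shares of the 13 genes and 3 ratios (Python 3.11.15). Sums over the 6 genes were not tested. Nuclear copies were found by 31-base words in GENCODE M21 transcripts.

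The named genes are the 6 transcripts, in each of 6 partner lists the 3 measured genes with the smallest p, and the genes most correlated with the 6. The transcripts, the 6 partner lists and 11 cell type marker lists were chosen with earlier results of these data known. Alternatives were other pseudocounts (0.1 and 5), other filters (none, or at least 5 TPM on average), 3 other scalings, array weights, robust estimation or no trend in limma, a replicate block, a class by Y-linked transcripts (at least 10 TPM), addition of the nuclear copies, TPM multiplied by length, percent of the column total, and each library left out. Addition of the copies scaled by length, and the test of each gene within each class, were chosen after seeing the data.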

Additional observations from a re-analysis of the deposited data

Results flagged for a closer look

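Of 42 groups of 4 libraries examined for a library far from the others, 1 stood out, and chance alone marks about 1 in 20 groups. The share of mt-Atp6 among the 13 mitochondrial genes was 12.4% in adult replicate 1 and 11.1% to 11.2% in the other adult libraries, a gap of 0.886 of the group's range, above Dixon's critical value. That library was the only adult one within the aged range of 12.2% to 13.5%.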

How the results depend on the processing

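No gene passed the adjusted limma test as deposited. With array weights 1 did, Gm15446 (at most 9.32 TPM). Leaving out 1 library at a time gave 0 to 2: 1 without adult replicate 3 (Apoo-ps) and 2 without aged replicate 1 (Gm12396 and Gm5931). Within the class of higher Y-linked transcripts 16 passed, 8 higher and 8 lower, among them Gm10925, the copy of mt-Atp6, and within the other class 3 (Gm4737, Apoo-ps and Gm28438, the copy of mt-Nd3), each with 2 libraries per group. The genes named here were chosen after their values were seen. None of the 6 transcripts passed the adjusted test in any alternative run. Their log2 fold changes were positive in all of them, except mt-Cytb with quantile normalization (-0.12). The share of mt-Co3 among the 13 was lower in aged libraries by -1.65 percentage points with copies added, by -2.17 with copies scaled by length and by -0.17 in the class of low Y-linked transcripts. The partner medians as scaled to non-mitochondrial genes were -0.21 (complex III), -0.053 (complex IV), -0.090 (ATP synthase), 0.044 (assembly factors), 0.15 (transcription) and 0.13 (RNA processing); with quantile normalization complexes III, IV and V gave -0.081, 0.020 and -0.047. With 1 library left out the medians ran from -0.57 to -0.31 for complex III and from -0.31 to -0.11 for assembly factors (the smaller sizes without aged replicate 3), from -0.27 (without aged replicate 2) to -0.05 (without aged replicate 3) for transcription and from -0.26 (without adult replicate 3) to -0.02 (without adult replicate 1) for RNA processing. The causes were not tested.

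Same-numbered adult and aged libraries had correlated deviations of 0.038, 0.181, 0.486 and 0.415, and 4 of 8 libraries correlated best with their own number, so the numbers were not taken as pairs. Adult replicate 1 and aged replicate 2 correlated best with each other (0.572), as did adult replicate 2 and aged replicate 1 (0.408). These are the libraries of low Y-linked transcripts. A fit with the replicate block called 0 genes, with 149 higher and 767 lower at an unadjusted p under 0.05 against 75 and 325 without it. With the Y-linked class as a covariate 0 were called, with 147 higher and 851 lower at the same unadjusted limit. With 3 against 4 libraries the smallest permutation p is 0.0571. TPM keep no depth, so counting error cannot be given.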
